A study of Homo sapiens with 9 samples.

Results

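RNA was measured in HMC3 cells, an immortalized human line of microglial origin that carries the SV40 large T antigen, after 6 days of exposure to SLO, a mixture of 3 small molecules. The mixture combines SBI-0206965, which inhibits autophagy through the kinase ULK1, Lopinavir, which blocks the biosynthesis of Lamin A, and O-151, an inhibitor of the DNA glycosylase OGG1. Wild-type cells of the same line received either the full dose (SLO, with 10 µM SBI-0206965, 1 µM Lopinavir and 1 µM O-151), the lower dose (SLO ½, with 5 µM SBI-0206965, 0.5 µM Lopinavir and 0.5 µM O-151) or the solvent DMSO (VEH), with 3 libraries per group. All 9 libraries come from 1 line, and nothing in the labels says whether the 3 libraries of a group came from separate cultures, so p-values measure the spread between these libraries, which may be technical. The genes described here are the zinc finger genes of chromosome 19, which are the rows listed on that chromosome as protein-coding, with a name of ZNF followed by digits alone, and with a mean of at least 100 reads over the 9 libraries. Of 241 such genes at any level, 158 reached that mean and are the members, out of 61544 genes listed in all. All 158 passed the filter on low counts and were tested with the other genes, 14727 in all. ZNF576 (98.8 reads), ZNF682 (97.1) and ZNF846 (96.6) lay just under the limit, and ZNF69 (100.3), ZNF71 (100.8) and ZNF439 (101.4) just over it. The members were thus chosen by their mean count in these libraries, and their levels are given as a description.

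Most genes of this kind code for KRAB zinc finger proteins, which are repressors made of a KRAB domain near the start of the protein and a long row of zinc fingers that read DNA. The KRAB domain recruits TRIM28, a scaffold that brings in the histone methyltransferase SETDB1 and the heterochromatin proteins of the HP1 family, and the bound chromatin gains trimethylation of lysine 9 on histone H3. Transposable elements are the best known targets of the family, which grew by tandem duplication in clusters along chromosome 19.

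The repeat that defines the family is shown for 2 pairs of members that lie close together because it shows how alike tandem copies are, which also bears on how reads can be assigned to them. Each line holds 84 bases of coding sequence (GRCh38, plus strand), which make up 1 finger and the linker to the next, and the capitals mark the codons of the 2 cysteines and 2 histidines that hold the zinc ion. The first pair stands in a cluster of members near the centromere, and the second in a cluster on the long arm.
ZNF714, chr19:21117523-21117606: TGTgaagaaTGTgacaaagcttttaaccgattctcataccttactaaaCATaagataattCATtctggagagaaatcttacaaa
ZNF431, chr19:21183339-21183422: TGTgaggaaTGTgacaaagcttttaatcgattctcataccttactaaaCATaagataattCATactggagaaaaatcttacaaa
ZNF155, chr19:43996473-43996556: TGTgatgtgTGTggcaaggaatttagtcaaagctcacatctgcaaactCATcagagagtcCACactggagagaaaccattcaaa
ZNF224, chr19:44106776-44106859: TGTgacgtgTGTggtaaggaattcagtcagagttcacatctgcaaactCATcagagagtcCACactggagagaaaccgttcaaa
The fingers of ZNF714 and ZNF431 shared 80 of 84 bases and those of ZNF155 and ZNF224 shared 78 of 84, as the best matching pair of fingers of each pair of genes. Over whole transcripts the members were more distinct. The share of 75-base words of a member's main transcript that also occurred in transcripts of another gene had a median of 0.77%, and reached 10% in 25 members, with the highest value of 76.7% in ZNF57. Reads were counted when they matched 1 place, so values of these 25 members are uncertain.

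The members were expressed at low to moderate levels. The mean in VEH ranged from 3.15 to 202.5 TPM, a scale of transcript abundance that corrects for gene length and library size, with a median of 14.0. ZNF146, a gene for a protein made almost wholly of fingers, was the most abundant, at 202.5 TPM. By a pattern search of the translated main transcript, the members coded for 1 to 32 fingers with a median of 13, and the highest number was in ZNF91. A KRAB pattern was found in 138 members and not in the other 20, among them ZNF146 and ZNF714. A missing match says only that the letters of the pattern were not found in that transcript.

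After SLO treatment, 68 of the 158 members were lower than in VEH and 14 were higher (edgeR quasi-likelihood test, Benjamini-Hochberg adjusted p below 0.05 over all tested genes). Among all tested genes 32.1% were lower and 32.9% higher, against 43.0% and 8.86% of the members. The median log2 fold change of the members was -0.16, beside 0.01 over all tested genes, and 112 of the 158 values were below 0. After SLO ½, 61 members were lower and 5 higher, or 38.6% and 3.17%, beside 25.3% and 26.7% of all tested genes, and the median was -0.15. Between the doses the members differed little. In SLO against SLO ½, 16 members were lower and 7 higher, beside 20.3% and 20.8% of all tested genes, and the median was -0.01. Scaling by library size alone, without TMM (a scaling that assumes that most genes do not change), gave 48 lower and 26 higher in SLO and 48 and 9 after SLO ½, with the median of all tested genes at 0.09 and 0.07. A lower value in a culture can come from fewer cells with the transcript or from less of it per cell, and these cannot be told apart here.

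The shift was also visible in each library. The members took 0.3369% ± 0.0030 (SD, n = 3) of reads on genes in VEH, 0.3101% ± 0.0063 after SLO ½ and 0.3095% ± 0.0043 after SLO. This share is weighted toward abundant members, and ZNF714 and ZNF146, both abundant, fell at both doses (values below). It therefore does not show by itself how widely the members fell, whereas the median member weights each gene alike. Relative to the mean of VEH, the median member was at -0.02 to 0.03 on the log2 scale in the VEH libraries, at -0.17 to -0.12 after SLO ½ and at -0.18 to -0.15 after SLO. The libraries of both treated groups lay below every VEH library, and the 2 treated groups overlapped.

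The counts depend on the genes set beside them. Among the 9845 protein-coding genes with a mean of at least 100 reads, 40.9% were lower and 32.4% higher in SLO, with a median of -0.05. Pooled over all counts above the limit, the share of lower members at the full dose was thus close to that of these genes. The share of higher members was smaller. Within each of the 2 ranges of counts given next, the share of lower members (40.15% and 57.69%) was larger than that of the genes. Most members were counted at modest depth, which limits what can be called. Among members with a mean of 100 to 500 reads, 53 of 132 were lower and 12 higher (median -0.16), beside 30.9% lower and 35.6% higher among 3609 protein-coding genes in the same range (median 0.02). Of the 26 members with at least 500 reads, 15 were lower and 2 higher (median -0.15), beside 46.6% and 30.5% of 6236 genes (median -0.08). For SLO ½, 34.1% of the 9845 genes were lower and 26.2% higher.

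Zinc finger genes elsewhere behaved in part alike. Of the 172 genes with a name of ZNF and digits on other chromosomes, 75 (43.6%) were lower and 37 (21.5%) higher in SLO, and 55 (32.0%) and 31 (18.02%) after SLO ½, with medians of -0.13 and -0.08. In SLO, 37.8% of the 119 with 100 to 500 reads were lower and 24.4% higher, beside 40.15% and 9.09% of the members. Of the 53 with at least 500 reads, 56.6% were lower and 15.1% higher, beside 57.69% and 7.69%. After SLO ½, 23.5% and 50.9% in these 2 ranges were lower, beside 35.6% and 53.85% of the members. Among the 495 other protein-coding genes of chromosome 19, 41.4% were lower and 27.1% higher in SLO, and 26.1% and 23.0% in SLO ½. A further 10 genes of chromosome 19 with other zinc finger names had 5 lower at either dose, with medians of -0.16 and -0.14. They were taken by name alone, and whether they code for the same type of finger was not checked. ZFP36 was 1 of those lower at both doses and had the largest fall of the 10 in SLO (log2 fold change -0.53). These are counts side by side, and no difference between the groups was tested.

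**Figure D1:**
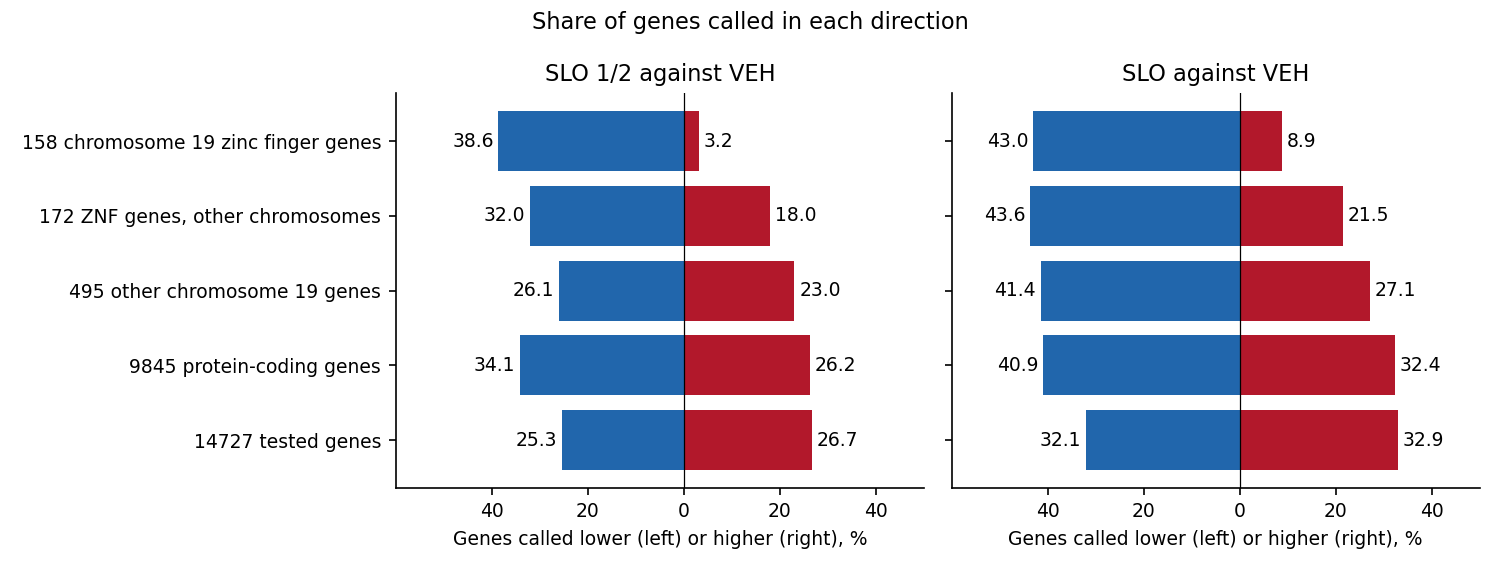
Share of genes called lower (blue, to the left) or higher (red, to the right) against VEH, in percent on the horizontal axis, for the members and 4 comparison groups, at SLO ½ on the left and SLO on the right. The members showed 8.86% higher in SLO, the smallest share of the 5 groups plotted. Their 43.0% lower lay near the values of the ZNF genes of other chromosomes and of protein-coding genes with the same limit on counts. Within ranges of counts above that limit, not plotted, the members were more often lower in SLO than protein-coding genes. In the same ranges their share lower in SLO was close to that of the ZNF genes of other chromosomes.

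Changes of single members were small. The median absolute log2 fold change of the 82 members called in SLO was 0.34, only 10 of them changed by more than 1.5-fold, and 1 changed by more than 2-fold. The standard error of a member's log2 fold change in SLO against VEH had a median of 0.09. For the 59 members with a mean under 200 reads the smallest difference called was 0.25, and for the 99 others it was 0.12, so smaller changes of the less abundant members were not detectable at this depth.

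ZNF714 had the largest fall. Its normalised read count in CPM, the count scaled to library size, was 179.4, 183.4 and 185.0 in the VEH libraries, 104.7, 114.2 and 116.1 in SLO ½, and 86.3, 81.1 and 82.1 in SLO. The 3 groups were fully apart and ordered by dose. ZNF714 fell by 54.5% in SLO (log2 fold change -1.14, SE 0.04, adjusted p = 8.0e-19 by edgeR) and by 38.9% in SLO ½ (-0.71, SE 0.04, adjusted p = 5.4e-14), and the 2 doses also differed (-0.43, SE 0.05, adjusted p = 1.4e-08). It had the highest CPM of all members in VEH, and 1 other annotated gene overlaps it on the same strand.

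ZNF699, a KRAB member with 15 fingers on the short arm, was next. It was at 45.5, 43.9 and 43.6 CPM in VEH, at 32.9, 32.5 and 35.1 in SLO ½ and at 22.3, 21.3 and 22.9 in SLO. No library of one group reached another group. ZNF699 fell by 49.98% in SLO (log2 fold change -0.999, SE 0.06, adjusted p = 1.8e-14, edgeR), by 24.3% in SLO ½ (-0.40, SE 0.06), and was lower in SLO than in SLO ½ by 0.60 on the log2 scale (log2 fold change -0.60, SE 0.06, adjusted p = 9.5e-09), the largest difference of a member between the doses.

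The next falls were in ZNF254, ZNF43 and ZNF615, all KRAB members. ZNF254 was at 23.1, 19.8 and 22.0 CPM in VEH, 13.2, 14.5 and 15.2 in SLO ½ and 11.6, 11.9 and 12.0 in SLO. Its groups did not overlap, and the log2 fold changes were -0.87 (SE 0.08) in SLO and -0.60 (SE 0.08) in SLO ½. ZNF43 lay near the count limit, at 9.52, 8.01 and 7.05 CPM in VEH and 3.87, 4.71 and 5.45 in SLO, and its wider spread gave a log2 fold change of -0.80 with an SE of 0.14. ZNF615 was at 15.0, 16.5 and 14.6 CPM in VEH, 10.3, 10.5 and 10.9 in SLO ½ and 10.1, 9.07 and 8.84 in SLO, with log2 fold changes of -0.71 and -0.53. Falls of more than 1.5-fold in SLO were also found in ZNF607 (log2 fold change -0.66), ZNF616 (-0.63), ZNF507 (-0.62), ZNF432 (-0.62) and ZNF431 (-0.61), all of which were also lower in SLO ½; ZNF607, ZNF616, ZNF507 and ZNF431 were named after their values were seen.

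ZNF429 was the largest fall at the lower dose. It was at 11.9, 9.39 and 9.09 CPM in VEH, 6.59, 5.89 and 5.75 in SLO ½ and 6.96, 6.59 and 7.12 in SLO. Both treated groups lay below VEH, with log2 fold changes of -0.73 (SE 0.12, adjusted p = 7.6e-06, edgeR) in SLO ½ and -0.55 (SE 0.12, adjusted p = 1.7e-04) in SLO.

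The largest rise among the members was that of ZNF331, a KRAB member at an imprinted locus. It was at 32.0, 33.3 and 29.3 CPM in VEH, 36.5, 41.0 and 36.1 in SLO ½ and 41.0, 49.2 and 42.8 in SLO. Every treated library was above every VEH library, and SLO was above SLO ½ although by a narrow gap. ZNF331 rose by 41.2% in SLO (log2 fold change 0.50, SE 0.07, adjusted p = 3.9e-07, edgeR), rose by 20.4% in SLO ½ (0.27, SE 0.07, adjusted p = 0.0022), and differed between the doses (0.23, SE 0.07, adjusted p = 0.0072).

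ZNF28 rose in SLO alone. Its values were 22.9, 23.8 and 21.8 CPM in VEH, 25.6, 22.5 and 25.5 in SLO ½ and 32.5, 29.7 and 30.1 in SLO. SLO ½ overlapped VEH (log2 fold change 0.10, adjusted p = 0.22) while SLO stood above both (0.43, SE 0.07, adjusted p = 3.2e-06 against VEH; 0.33, adjusted p = 2.7e-04 against SLO ½, all by edgeR). ZNF799 (5.59, 4.86 and 5.75 CPM in VEH, 7.26, 7.24 and 6.72 in SLO) had a log2 fold change of 0.39 with an SE of 0.13, and shares 36.7% of its 75-base words with other genes. ZNF552 (log2 fold change 0.38, SE 0.13) and ZNF132 (0.32, SE 0.12) were also higher. The call of ZNF552 was lost without VEH replicate 2 (0.24) or without SLO replicate 1 (0.30), and that of ZNF132 without SLO replicate 1 (0.29), SLO replicate 2 (0.29) or VEH replicate 1 (0.29). With DESeq2 (0.31) or without an expression filter (0.30) the call of ZNF132 was lost too, as was that of ZNF552 on log2(TPM + 1) without a filter (0.35).

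In SLO ½ the 5 members called higher were ZNF428, ZNF331, ZNF823, ZNF44 and ZNF302, with log2 fold changes of 0.34, 0.27, 0.26, 0.23 and 0.21. Of these, ZNF331, ZNF823 and ZNF302 were higher in SLO too. Other than that of ZNF331, these calls were near the threshold. ZNF428 lost its call without SLO ½ replicate 2 (0.21), and ZNF302 without SLO ½ replicate 2 (0.16) or VEH replicate 3 (0.15, and 0.15 in SLO). ZNF823 lost its call in SLO ½ without SLO ½ replicate 2 (0.24) or 3 (0.24) or VEH replicate 1 (0.22) or 2 (0.21), and in SLO without SLO replicate 2 (0.21) or 3 (0.23) or VEH replicate 1 (0.21) or 2 (0.19). ZNF44 kept its call in SLO ½ in 1 case only among the 6 libraries of that comparison left out in turn, with values of 0.16 without SLO ½ replicate 1, 0.24 without SLO ½ replicate 2, and 0.23, 0.24 and 0.22 without VEH replicates 1, 2 and 3. DESeq2 gave no call for ZNF823 at either dose or for ZNF44. Leaving out 1 library also moved the count of 5 to 2 without SLO ½ replicate 2 and to 3 without VEH replicate 2 or 3.

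**Figure D2:**
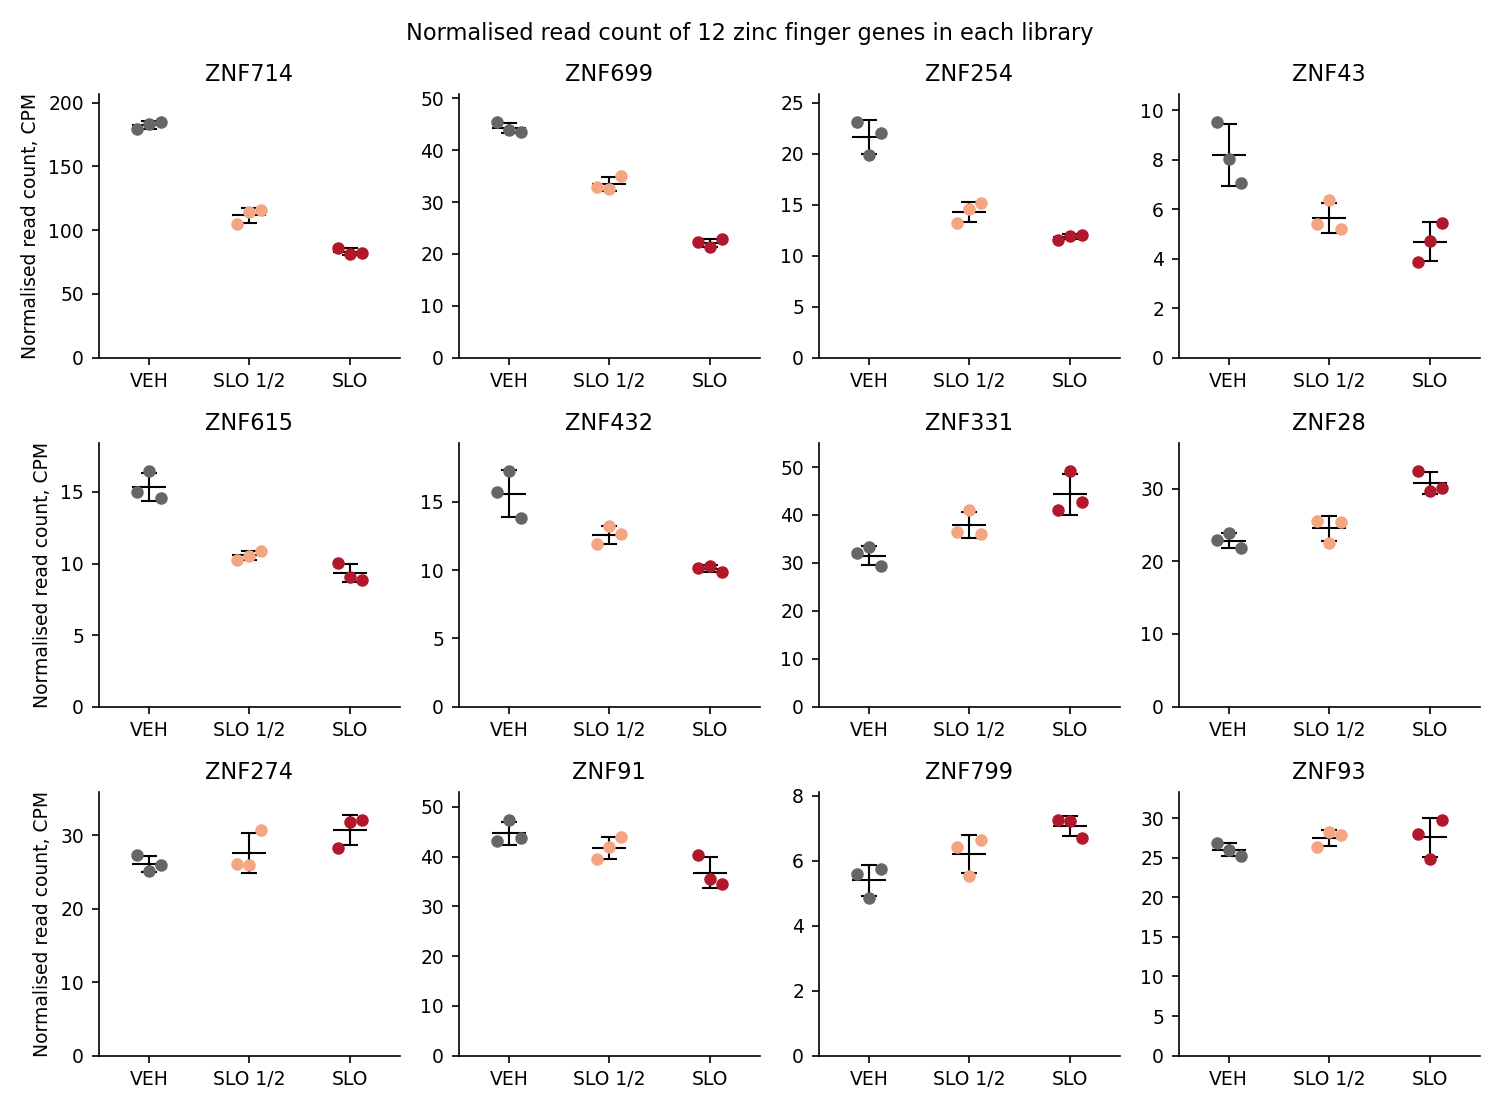
Normalised read count (CPM, vertical axis from 0) of 12 members in each library; points are libraries, the horizontal bar is the mean and the error bar 1 SD of 3 libraries. ZNF714, ZNF699 and ZNF254 showed 3 separate groups falling with dose, ZNF331 and ZNF28 were highest in SLO, and the libraries of ZNF93 overlapped.

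Both doses were compared with the same VEH libraries, so their fold changes are not independent. Of the 158 members, 53 were lower at both doses, 15 in SLO alone, 8 in SLO ½ alone, 3 were higher at both, 11 higher in SLO alone and 2 in SLO ½ alone, while 66 were called at neither. No member was called in opposite directions. Among the 53 members lower at both doses, 30 had the larger fall in SLO, and 9 of the 53 were lower in SLO than in SLO ½ in the test between the doses and 0 were higher. For most of them the data thus did not show a larger fall at the larger dose.

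The members thus did not all follow the order of dose, and ZNF66, ZNF527 and ZNF416 were named from the test between the doses. ZNF66 was at 8.83, 11.8 and 8.93 CPM in VEH, 8.18, 7.26 and 8.21 in SLO ½ and 8.54, 11.0 and 9.91 in SLO. SLO ½ was lowest, and SLO and VEH overlapped. The log2 fold changes were -0.31 in SLO ½ (adjusted p = 0.032, edgeR), 0.01 in SLO (adjusted p = 0.97) and 0.32 between the doses (adjusted p = 0.037). The first call was lost without VEH replicate 2 (-0.18) or SLO ½ replicate 2 (-0.26), and the last without SLO ½ replicate 1 (0.34), 2 (0.26) or 3 (0.35) or SLO replicate 2 (0.22) or 3 (0.31). Both calls of ZNF66 were also lost with DESeq2 (-0.33 and 0.32) and with limma on TPM, and the first with scaling by library size alone (-0.26). ZNF527 was higher in SLO than in SLO ½ by a log2 fold change of 0.27, a call that was lost without SLO ½ replicate 1 (0.23) or 2 (0.25) or SLO replicate 2 (0.25) or 3 (0.23). The call of ZNF527 was also lost with DESeq2 (0.27), without an expression filter (0.26) and on log2(TPM + 1) without a filter (0.27). ZNF416 differed between the doses the other way (log2 fold change -0.40, SE 0.12, adjusted p = 0.0074), with 7.95, 7.95 and 8.75 CPM in SLO ½ and 7.14, 5.83 and 5.65 in SLO, and overlapped VEH in SLO. Between the doses the count of 7 higher members fell to 2 without SLO replicate 2 or 3, to 3 without SLO ½ replicate 1 and to 4 without SLO ½ replicate 2, and the count of 16 lower members to 9 without SLO ½ replicate 2 and to 10 without SLO ½ replicate 3 or SLO replicate 3.

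**Figure D3:**
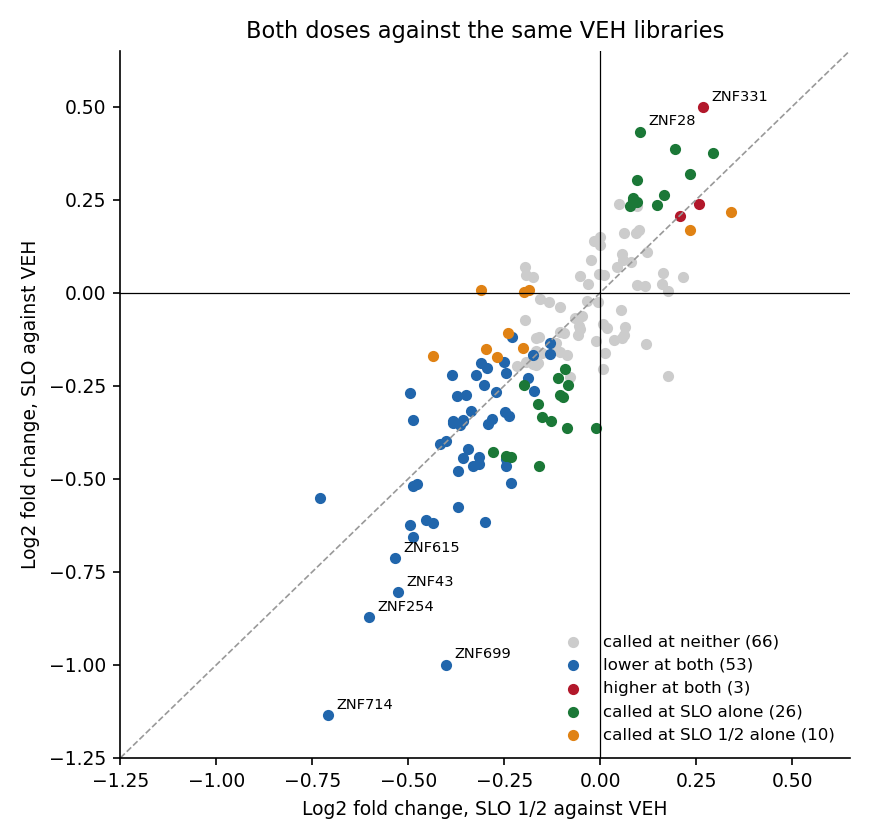
Log2 fold change of each member in SLO ½ (horizontal) and in SLO (vertical) against the same 3 VEH libraries, coloured by the calls, with the dashed line marking equal change. The 53 members lower at both doses lie on both sides of the line, and ZNF714 and ZNF699 lie farthest below it.

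Position along the chromosome was examined next. Family genes at any level were joined into a cluster where the gap to the next was at most 500 kb, which gave 8 clusters with at least 5 members, here called A to H from the short to the long arm. They held 148 of the 158 members. Positions are those of the GRCh38 build, and 154 of the members have the same start and end in GENCODE 44.

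Cluster C (chr19:19668796-24129968), the long cluster beside the centromere, held 22 members, of which 14 were lower and 1 higher in SLO, and 13 lower and 0 higher in SLO ½, with medians of -0.30 and -0.26. It holds ZNF714, ZNF254, ZNF43, ZNF431 and ZNF429, as well as ZNF91 and ZNF93. Cluster D (chr19:36182276-37817300), with 18 members, gave 12 lower and 0 higher in SLO and 11 lower and 0 higher in SLO ½, with medians of -0.26 and -0.24. These were the clusters with the lowest medians at both doses. Without VEH replicate 2 the median of cluster G in SLO (-0.255) was below those of clusters C (-0.254) and D (-0.243), and without SLO replicate 3 that of cluster G (-0.233) was below that of cluster D (-0.222). Over the 19 other fits and left-out libraries computed by cluster, the median of cluster C stayed between -0.33 and -0.23 in SLO and that of cluster D between -0.29 and -0.18. ZNF146 was the member of cluster D with the smallest p, at 176.8, 175.4 and 182.8 CPM in VEH, 144.1, 144.8 and 147.7 in SLO ½ and 143.1, 135.3 and 140.5 in SLO. It fell by 21.8% in SLO and by 18.4% in SLO ½, with no overlap between VEH and either treated group.

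Clusters A, G, E and F lay between. Cluster A (chr19:8509678-9793180, 9 members) had 5 members lower and 0 higher at either dose, with ZNF699 leading, and a median of -0.16 in SLO; its count of 5 lower in SLO went down to 1 in the alternative that moved it most. Cluster G (chr19:55476617-56671783, 11 members) had 6 lower and 0 higher in SLO and 4 and 0 in SLO ½. In it, ZNF667 was at 31.9, 31.1 and 29.0 CPM in VEH and 21.3, 22.2 and 24.1 in SLO, with a log2 fold change of -0.44. Cluster E (chr19:43525497-44500524, 14 members) had 4 lower and 1 higher in SLO and 3 and 1 in SLO ½, and ZNF227 had the smallest p in SLO, with a log2 fold change of -0.35. Cluster F (chr19:51571283-53580269, 31 members) had 12 lower and 4 higher in SLO and 15 and 1 in SLO ½. It held both the falls of ZNF615, ZNF616 and ZNF432 and the rises of ZNF331 and ZNF28, and gave 4 of the 7 members that were higher in SLO than in SLO ½.

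Clusters B and H had medians nearest 0. Cluster B (chr19:11483427-12640098, 11 members) had 4 lower and 3 higher in SLO and 2 and 2 after SLO ½, with medians of -0.07 and 0.00. ZNF700 had its smallest p, with a log2 fold change of -0.37 in SLO, while ZNF799 and ZNF823 were higher. Cluster H (chr19:57191500-58481230, 32 members), the last before the end of the long arm, had 8 lower and 4 higher in SLO and 5 and 0 after SLO ½, with medians of -0.08 and 0.01. The member with the smallest p was ZNF550, at 18.6, 17.0 and 18.02 CPM in VEH, 16.6, 15.6 and 15.9 in SLO ½ and 12.5, 13.1 and 13.2 in SLO, with a log2 fold change of -0.47 in SLO and -0.31 between the doses. At an unadjusted p under 0.05 in edgeR, the clusters with 0 higher members still had 0, other than 1 in cluster G in SLO and 1 in cluster H in SLO ½, and DESeq2 also gave 0 in each. The 10 members outside the clusters gave 3 lower and 1 higher in either comparison with VEH.

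Neighbouring members were then compared. Over 144 pairs of adjacent members within a cluster, the median absolute difference of the SLO log2 fold changes was 0.25, the same as over all 12403 pairs of members (0.25). In SLO ½ it was 0.16 for neighbours, 0.19 for pairs within a cluster and 0.21 for all pairs. The signs of neighbours were equal in 92 of the 144 pairs in SLO and in 95 in SLO ½. Because 112 of the 158 values were below 0 at either dose, any 2 members often have the same sign. These counts therefore do not show by themselves that neighbours are alike. ZNF714 and ZNF431, shown above with nearly identical fingers, stand next to each other and both fell, by 1.14 and 0.61 on the log2 scale. No test was made of these differences.

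**Figure D4:**
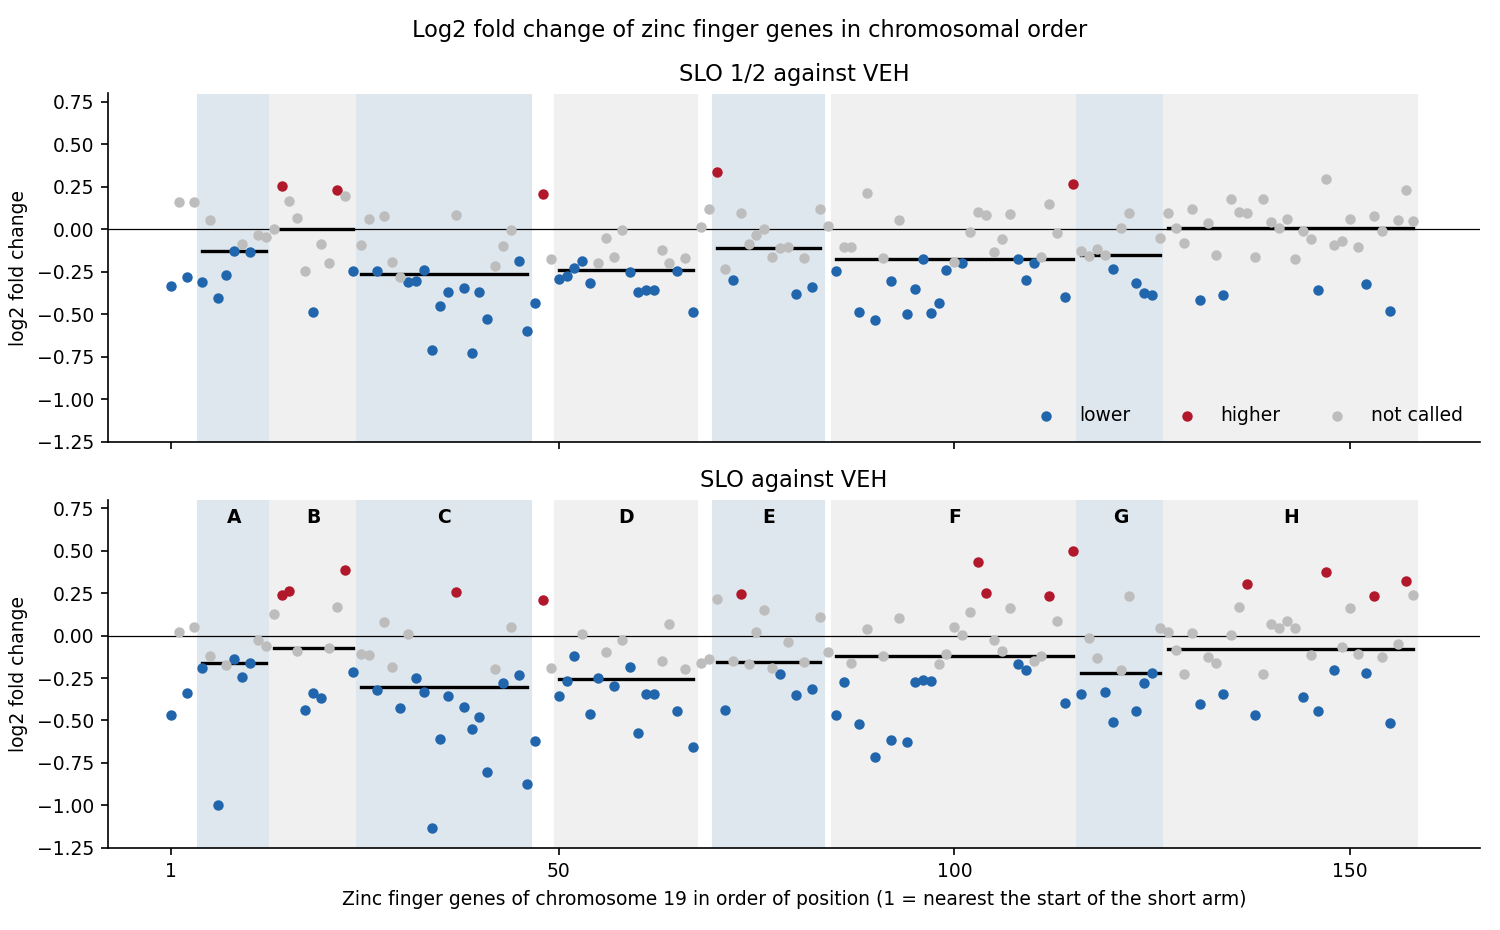
Log2 fold change of the 158 members in their order along the chromosome, for SLO ½ (top) and SLO (bottom), with blue for lower, red for higher and grey for not called. Shaded bands are clusters A to H and the black line in each is its median, which was lowest in clusters C and D and nearest 0 in clusters B and H.

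**Figure D5:**
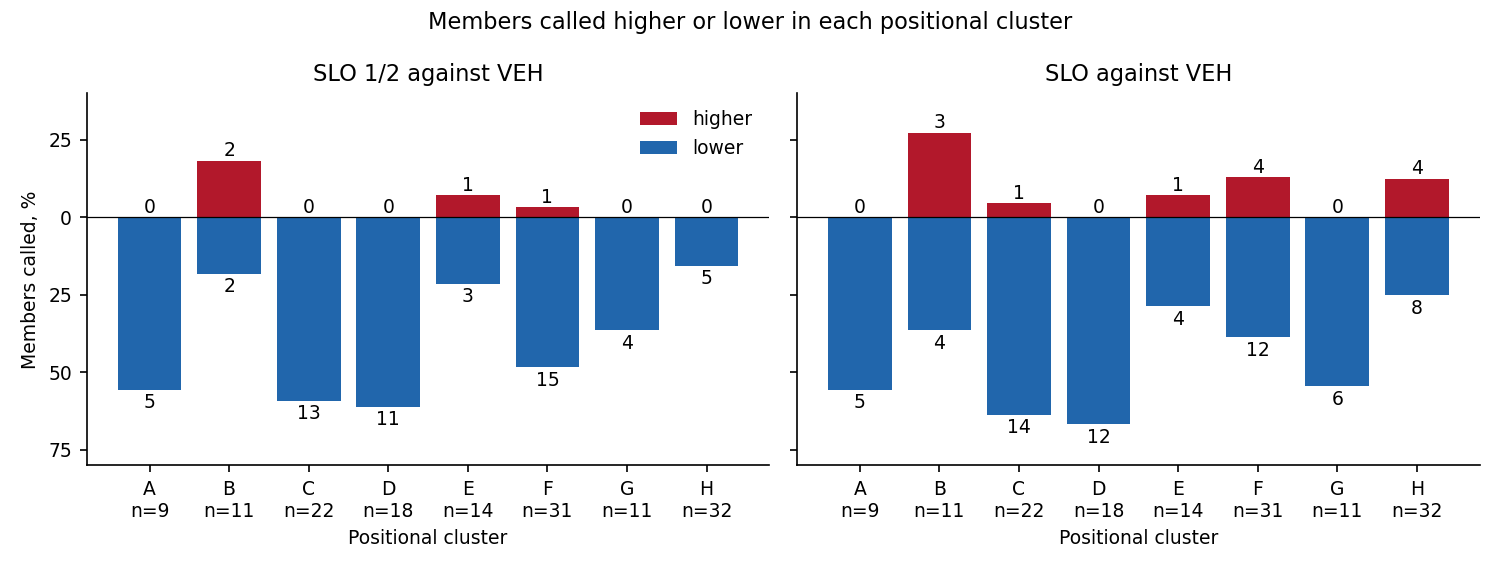
Share of the members of each positional cluster called higher (red, up) or lower (blue, down) against VEH, in percent, with the number of genes printed at each bar. Cluster D reached 12 of 18 lower and 0 higher in SLO, while cluster B had 4 lower and 3 higher. Of all tested genes, not plotted, 32.1% were lower and 32.9% higher in SLO, and 25.3% and 26.7% in SLO ½.

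Sequence features were set beside the changes. The 53 members with the longest main transcripts (at least 4785 bases) had 35 lower and 1 higher in SLO with a median of -0.23, and the 53 with the shortest (up to 3639 bases) had 18 lower and 6 higher with a median of -0.13. Among all protein-coding genes with at least 100 reads the same limits gave 43.6% and 39.9% lower in SLO, with medians of -0.06 and -0.05, and 44.9% and 26.6% lower in SLO ½, with medians of -0.10 and 0.01. The 53 members with the lowest GC content (33.2% to 40.1%) had 30 lower and 5 higher with a median of -0.20, and the 53 with the highest (43.5% to 70.9%) had 17 lower and 6 higher with a median of -0.13. Of the 1962 protein-coding genes with at least 100 reads, members included, at or under the same GC limit 48.9% were lower and 26.04% higher in SLO (median -0.12), beside 37.1% and 35.6% of the 6297 genes at or over the upper limit (median -0.01). Clusters C and D had the lowest median GC content of the 8 clusters, at 36.7% and 39.2%, and cluster G the highest, at 61.8%. The part of transcript length or GC content in the members' changes was not tested.

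Other features were set beside the changes in the same way. With a KRAB pattern, 59 of 138 members were lower and 14 higher, and without one 9 of 20 were lower and 0 higher, with medians of -0.16 and -0.15. By number of fingers, the 53 members with the most (14 to 32) had 26 lower and the 53 with the fewest (1 to 11) had 25 lower. The 52 members between (11 to 14) had 17 lower. Members with 11 or 14 fingers were split between these groups. The 25 members that share at least 10% of their words with other genes had 6 lower and 3 higher with a median of -0.09, and the other 133 had 62 and 11 with a median of -0.17. Of 50 members overlapped by another gene on the same strand 19 were lower, and of the 108 without such overlap 49 were lower.

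The bases before the start of transcription were available for 145 members, from RefSeq promoters of the GRCh38.p14 build. Of these windows of 250 bases, 47 held no annotated exon, so the shares given below include windows that overlap exons. The window of ZNF714 is shown cut to 206 bases, up to the annotated start of the gene. The windows of 4 members are shown without any annotated exon: ZNF714 and ZNF429, both of cluster C, which fell, ZNF699, the largest fall outside it, and ZNF132, which was called higher in SLO in the edgeR fit. Each is written 5′ to 3′ on the gene's strand, and the capitals mark matches on either strand to CCGGAA (the core of ETS factor sites), GGGCGG (a GC box), CCAAT (the site of NF-Y) and TGACG (the core of CRE sites).
ZNF714, plus strand, chr19:21081953-21082158: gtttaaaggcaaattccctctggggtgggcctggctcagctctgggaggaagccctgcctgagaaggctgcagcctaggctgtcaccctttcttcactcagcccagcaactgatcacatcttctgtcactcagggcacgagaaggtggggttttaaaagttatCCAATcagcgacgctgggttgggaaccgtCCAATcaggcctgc
ZNF429, plus strand, chr19:21505352-21505601: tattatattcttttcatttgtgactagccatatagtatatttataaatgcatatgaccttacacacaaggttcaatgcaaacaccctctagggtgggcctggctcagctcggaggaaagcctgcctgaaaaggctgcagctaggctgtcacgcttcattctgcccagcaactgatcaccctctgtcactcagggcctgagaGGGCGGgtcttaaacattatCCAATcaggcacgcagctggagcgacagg
ZNF699, minus strand, chr19:9309839-9310088: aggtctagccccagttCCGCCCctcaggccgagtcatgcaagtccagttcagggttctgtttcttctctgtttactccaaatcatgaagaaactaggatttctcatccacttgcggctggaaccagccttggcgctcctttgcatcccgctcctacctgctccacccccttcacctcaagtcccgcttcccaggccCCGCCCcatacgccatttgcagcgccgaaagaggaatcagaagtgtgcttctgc
ZNF132, minus strand, chr19:58440154-58440403: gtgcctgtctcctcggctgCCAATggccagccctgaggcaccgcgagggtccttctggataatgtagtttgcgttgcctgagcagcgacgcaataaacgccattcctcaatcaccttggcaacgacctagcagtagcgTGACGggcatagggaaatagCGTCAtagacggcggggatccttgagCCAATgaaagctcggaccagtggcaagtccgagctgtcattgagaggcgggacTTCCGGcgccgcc
The windows of ZNF714 and ZNF429 have a run of 20 bases in common and both hold CCAAT. Over the 250 bases before the start, CCGGAA was present in 58 of the 145 members, in 27.6% of protein-coding genes with at least 100 reads and in 14.8% of 27305 promoters of all genes. CCAAT was present in 51.0%, 35.8% and 32.9%, GGGCGG in 57.2%, 68.9% and 41.6%, and TGACG in 24.1%, 30.6% and 21.3%. For CCGGAA and CCAAT, the shares among members that fell stood close to those of members not called. CCGGAA was in 41.5% of the 65 members lower in SLO with a window and in 37.7% of the 69 not called, and CCAAT in 50.8% and 52.2%. These are matches of letters and not measured binding.

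Members with a described target or partner, a list written from general knowledge, were mixed. Of 12 such members 5 were lower and 2 higher in SLO, and 4 lower and 1 higher in SLO ½, with medians of -0.07 and -0.05. ZNF91, which silences SVA retrotransposons, was at 43.2, 47.4 and 43.7 CPM in VEH, 39.6, 41.9 and 43.9 in SLO ½ and 40.3, 35.5 and 34.4 in SLO. Its SLO libraries lay below VEH (log2 fold change -0.28, SE 0.06, adjusted p = 3.0e-04, edgeR), and SLO ½ overlapped VEH (-0.10, adjusted p = 0.19). ZNF93, which acts on LINE elements, was at 26.9, 26.0 and 25.2 CPM in VEH and 28.0, 24.9 and 29.8 in SLO, with overlapping groups and a log2 fold change of 0.08 (SE 0.07, adjusted p = 0.31). ZNF274, which recruits SETDB1 to the ends of zinc finger genes themselves, was at 27.3, 25.1 and 25.96 CPM in VEH, 26.06, 26.02 and 30.8 in SLO ½ and 28.3, 31.8 and 32.1 in SLO. It was higher in SLO (0.23, SE 0.07, adjusted p = 0.0061) and its groups overlapped in SLO ½ (0.08, adjusted p = 0.39).

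ZNF432, described in the response to DNA damage, fell in SLO (log2 fold change -0.62, SE 0.10) from 15.8, 17.3 and 13.8 CPM to 10.2, 10.3 and 9.84, and in SLO ½ (-0.30), where the call was lost without VEH replicate 2 (-0.23). ZNF420, also known as Apak and described as a repressor of p53 activity, fell by 0.35 in SLO and by 0.36 in SLO ½ on the log2 scale. ZNF558, a regulator of a mitophagy gene, was lower at both doses (-0.19 and -0.31), but its SLO call was lost without VEH replicate 1 (-0.11), SLO replicate 1 (-0.19) or SLO replicate 2 (-0.17), and also with DESeq2 (-0.19), scaling by library size alone (-0.11), limma on TPM (-0.18 on log2(TPM + 1)), a minimum of 10 counts in every library (-0.17) and a fit of the 2 groups alone (-0.19). ZNF350, ZNF304, ZNF649 and ZNF224 did not pass the test at either dose, with log2 fold changes in SLO of 0.04, 0.02, -0.16 and 0.15. ZNF224 shares 47.7% of its words with other genes, and stands between the members ZNF230 and ZNF225.

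The partners that KRAB zinc finger proteins work with were examined from a list of 32 genes for the corepressor complex and the methylation of lysine 9 on histone H3. All were tested, and 26 were lower and 3 higher in SLO, and 21 lower and 1 higher in SLO ½, with medians of -0.22 and -0.17. Of all tested genes 32.1% were lower and 32.9% higher in SLO and 25.3% and 26.7% in SLO ½, and of protein-coding genes with at least 500 reads 46.6% were lower and 30.5% higher in SLO. TRIM28, the scaffold that KRAB domains bind, was at 277.5, 282.2 and 277.3 CPM in VEH, 262.4, 270.7 and 262.6 in SLO ½ and 257.9, 250.5 and 232.6 in SLO. It was lower in SLO (log2 fold change -0.18, adjusted p = 4.6e-04, edgeR) and did not pass the test in SLO ½ (-0.07, adjusted p = 0.14). SETDB1 fell more at the lower dose, from 32.3, 30.3 and 30.2 CPM to 19.9, 24.9 and 24.7 in SLO ½ (-0.42, adjusted p = 4.2e-05), than in SLO, where it was at 25.4, 27.5 and 29.5 (-0.17, adjusted p = 0.046). The 3 smallest p in SLO belonged to CHD3, a remodeller of the NuRD complex (-0.60), PPM1D, a phosphatase that acts on TRIM28 (0.88), and CBX3, an HP1 protein (-0.55). The other genes higher in SLO were TRIM24 (0.52), a relative of TRIM28, and CBX5 (0.39), another HP1 protein. Falls were also measured in the methyltransferase SUV39H1 (-0.69), in EHMT2 (-0.64), in UHRF1 (-0.61), a reader of methylated DNA, and in TASOR (-0.60), a subunit of the HUSH complex; these 4 and the 2 rises before them were named after their values were seen. Of 10 genes for demethylases of the same lysine, 6 were lower and 2 higher in SLO, and 6 lower and 1 higher in SLO ½, with PHF2 (-0.63), KDM3B (-0.47) and KDM1A (-0.27) lower and KDM7A (0.63) and KDM4B (0.12) higher in SLO.

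Some properties of the cells and libraries moved with the same groups. Reads that matched several places, which were not counted, made up 8.35% to 8.52% of reads in VEH, 7.83% to 7.95% after SLO ½ and 7.16% to 7.31% after SLO. The libraries held 14834295 to 19674841 reads on genes, of which mitochondrial transcripts made up 1.30% to 1.61% in VEH, 2.30% to 2.86% after SLO ½ and 2.51% to 3.12% after SLO. Of 10 proliferation markers 8 were lower and 1 higher in SLO and 7 lower and 0 higher in SLO ½, and their summed level was 6097 to 6152 TPM in VEH, 4918 to 5176 after SLO ½ and 4498 to 4746 after SLO. Of 12 markers of the labelled cell type 2 reached a mean of 1 TPM in each group. P2RY12 and C1QA had 0 counts in all 9 libraries, CX3CR1 and SPI1 had 0 in every VEH and SLO library, and TREM2 had a mean of 1.37 TPM in VEH, 3.73 after SLO ½ and 3.605 after SLO. Of 9 fibroblast and pericyte markers 6 reached 1 TPM, and their sum, most of it COL1A1, was 1420 to 1653 TPM in VEH, 1721 to 1754 after SLO ½ and 2065 to 2165 after SLO. The part of multiply matched reads, proliferation, mitochondrial transcripts or cell identity in the members' changes was not tested. Batches or dates are not given in the labels.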

How the data were processed

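The authors prepared libraries of polyadenylated RNA (KAPA RNA HyperPrep), used Trimmomatic 0.38 for trimming and STAR 2.7.1a for alignment to GRCh38, and deposited raw read counts per gene and strand. The deposited TPM values were scaled by the authors for gene length and library size; how gene length was set is not given in the sources used here. The members and gene lists were chosen with earlier results of these data known. A gene was taken as protein-coding where its listed category, a list of transcript types, included that type. Counts were fitted with edgeR 4.0.16 in R 4.3.3 (filterByExpr, TMM, quasi-likelihood test, 3 groups, no block) over all 14727 tested genes, with Benjamini-Hochberg adjustment and calls at adjusted p below 0.05. CPM are scaled by TMM. The fit was tested on simulated data. Alternatives used DESeq2 1.42.0, limma 3.58.1 on log2(TPM + 1), other scalings, filters, limits and samples. Depth per library was 14834295 to 19674841 reads on genes. Errors are SD over libraries or the SE of a log2 fold change. That SE was the absolute log2 fold change divided by the square root of the edgeR F statistic. It rests on a spread estimated over the 3 groups and moderated over genes.

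Named members were, with adjusted p below 0.05 and no overlap between groups, the 5 largest rises and falls against VEH at each dose and the 3 largest between doses, then the smallest p in each cluster, members with a described target or partner, and those at the count limit. In the gene lists, TRIM28, SETDB1 and the 3 smallest p were named. Fingers, KRAB patterns, transcript length, GC content, exons and shared words were read from GENCODE 44, and promoters from RefSeq. A microglial marker in the list is not reported here, nor is the summed level of that list.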

Additional observations from a re-analysis of the deposited data

How the results depend on the processing

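Of 323 values of the summary results under alternative settings, 279 stayed within the limits set for them. Among members, falls outnumbered rises in both comparisons with VEH under every setting run. Scaling by library size alone gave 26 higher and 48 lower members in SLO (median -0.0863), 9 higher and 48 lower in SLO ½ (median -0.10) and 15 higher between the doses, while the median of all tested genes moved to 0.09 and 0.07 against VEH. DESeq2 gave 3 higher in SLO ½, and 4 higher and 8 lower between the doses. Without an expression filter SLO ½ had 3 higher. With limma on log2(TPM + 1), SLO ½ had 3 higher and a median of -0.18, and between the doses there were 8 lower with a median of 0.0196. With log2(TPM + 0.1) these were 3, -0.20, 9 and 0.0212. On log2(TPM + 1) without a filter there were 8 higher in SLO, 1 in SLO ½ (median -0.18), and 2 higher and 4 lower between the doses (median 0.0196). Fitting only the groups compared gave 11 higher between the doses. A count limit of 50 gave 8 higher in SLO ½ and a limit of 200 gave 44 lower in SLO. Taking only genes whose category is protein-coding alone (37 members, chosen after seeing the data) gave 2 higher and 13 lower in SLO, 1 and 11 after SLO ½ (median -0.0878) and 1 and 4 between the doses (median -0.0424).

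Leaving out 1 library at a time gave 11 to 15 higher and 62 to 68 lower in SLO (median -0.17 to -0.15), 2 to 6 higher and 49 to 63 lower in SLO ½ (median -0.15 to -0.14), and 2 to 10 higher and 9 to 16 lower between the doses (median -0.03 to 0.00). With the replicate number as a replicate block, 15 members were higher and 70 lower in SLO, 6 and 61 after SLO ½, and 8 and 16 between the doses. Libraries with the same number had correlations of 0.003 to 0.087 in their deviations from the group means. Those with different numbers had correlations of -0.062 to 0.037. The limit set for pairing was 0.1, so the numbers were not taken to pair the samples. All same-numbered values were above 0, and a weak pairing was not tested further.

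Of 1368 values for the named members, 1246 kept direction and call, 76 lost the call, 20 gained it and 26 changed sign, all 26 in members not called. ZNF224 in SLO ½ was at -0.04 to -0.002 in 7 settings (-0.0118 with DESeq2, -0.0101 with its size factors, -0.0154 without a filter, -0.0020 with the replicate block, -0.0416 and -0.0441 on TPM with a pseudocount of 1 and 0.1, -0.0416 without a filter) and at -0.0457 to 0.0292 with a library left out. ZNF66 in SLO was at -0.0019 with DESeq2, -0.0130 without a filter and -0.0050 on TPM (-0.0050 at each pseudocount), and at -0.0883 to 0.140 with a library left out. ZNF304 in SLO was at -0.0030 without a filter and -0.0253 to 0.0831 with a library left out, ZNF350 in SLO at -0.0124 to 0.0887 and ZNF274 in SLO ½ at -0.0078 to 0.118. Calls lost most often were those of ZNF558 in SLO and ZNF44 in SLO ½ (10 settings each). Clusters with at least 5 members numbered 9 with a gap of 250 kb and 7 with 1000 kb. The cause of these changes was not tested. Depth limits members under 200 reads.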

Other observations

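Of the 83 family genes under the count limit, 57 were tested and 5 had 0 counts in all 9 libraries. Of these low genes 10 were higher and 9 lower in SLO (median 0.08), beside 32.9% and 32.1% of all tested genes, and 6 were higher and 4 lower in SLO ½, beside 26.7% and 25.3%. Whether they differ from the members was not tested, and their standard errors are larger. In cluster B, 5 of 9 such genes were higher in SLO and 0 lower (median 0.41), among them ZNF878 (log2 fold change 1.40, SE 0.24), ZNF844 (0.70, SE 0.21) and ZNF442 (0.63, SE 0.16); these were named after their values were seen. ZNF878 had 15, 13 and 18 counts in VEH, 26, 26 and 22 in SLO ½ and 35, 48 and 35 in SLO, so that its libraries did not overlap between groups. The largest fall under the limit was that of ZNF573 in cluster D (-1.09, SE 0.17), which was also lower in SLO ½ (-0.86).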
